A study of Mus musculus with 6 samples.

Results

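The genes described here are 9 members of the Indian hedgehog and PTHrP pathway: the ligands Ihh and Pthlh, the receptors Ptch1, Smo and Pth1r, the transcription factors Gli1, Gli2 and Gli3, and the inhibitor Hhip. They were chosen by name, and all 9 were found among the 41388 genes of the count tables. In growing cartilage, Indian hedgehog is made by chondrocytes that are leaving the cell cycle, binds Ptch1 and thereby releases Smo, which acts on the Gli factors in the primary cilium. PTHrP, the product of Pthlh, acts through Pth1r, a receptor coupled to G proteins and cAMP, and keeps chondrocytes from becoming hypertrophic. Hedgehog signaling sustains Pthlh expression, so that ligand and receptor pairs form a feedback loop, and Ptch1, Gli1 and Hhip are themselves response genes of the pathway.

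RNA-seq was done on chondrocytes from femoral head cartilage of male mice aged 21 days, after 2 days in culture and without treatment. The Postn-/- group held 3 samples from mice homozygous for a Postn knockout allele (Postn tm1Jmol), and the wt group held 3 samples from wild-type littermates, both on a B6/129 background (B6129SF2/J in the methods). Total counts ran from 20587640 to 26572260 per sample, at which 3 counts correspond to 0.113 to 0.146 CPM, the count scaled to the sample total. Values below are TMM CPM unless another scale is named, that is, CPM scaled by a further factor for the composition of each library. The comparison asks which genes differ between the genotypes at baseline.

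The targeted gene Postn was at 4.66, 4.27 and 5.67 CPM in Postn-/- replicates 1, 2 and 3 and at 10.1, 10.3 and 6.90 CPM in wt replicates 1, 2 and 3. Every Postn-/- sample was below every wt sample, and reads remained on the gene in all 3 Postn-/- samples. The log2 fold change was −0.91 (SE 0.22, adjusted p = 0.717 by edgeR's quasi-likelihood test). Which exons these reads came from cannot be read from counts per gene.

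Chondrocyte genes dominated the marker lists. The proliferating chondrocyte markers, 14 genes all with counts, summed to between 31599 and 49265 CPM per sample, and per kilobase Cnmd (2601 RPKM on average) and Comp (2436 RPKM) led this list. The hypertrophic markers Spp1 and Mmp13 were at 2299 and 751 RPKM on average, and the resting and articular markers Ucma and Wif1 at 246 and 173 RPKM. Other cell types left smaller or mixed signals. Endothelial markers summed to 7.27 to 13.7 CPM (Pecam1 and Vwf led), leukocyte and erythroid markers to 19.0 to 47.4 CPM (Cd68 and Lyz2 led), and the erythroid gene Hba-a1 had 1 read in the 6 samples together. Osteoclast markers summed to 316 to 458 CPM, nearly all of it Ctsk, with Acp5 at 10.6 to 25.2 CPM.

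None of the 9 members differed between the genotypes past the adjusted threshold. With edgeR's quasi-likelihood test and Benjamini-Hochberg adjustment, 0 of 9 had an adjusted p of at most 0.05, against 0.0138% of the 14533 genes tested. At an unadjusted p of at most 0.05 there were also 0 of 9, against 6.30% of all tested genes, and DESeq2's Wald test gave 0 of 9 at either threshold. In 0 of 9 members did the 2 groups fail to overlap, against 13.6% of all tested genes. All 9 passed the filter of more than 1 CPM in at least 2 samples. In bulk samples, fewer cells of a type and less RNA per cell cannot be told apart.

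**Figure D1:**
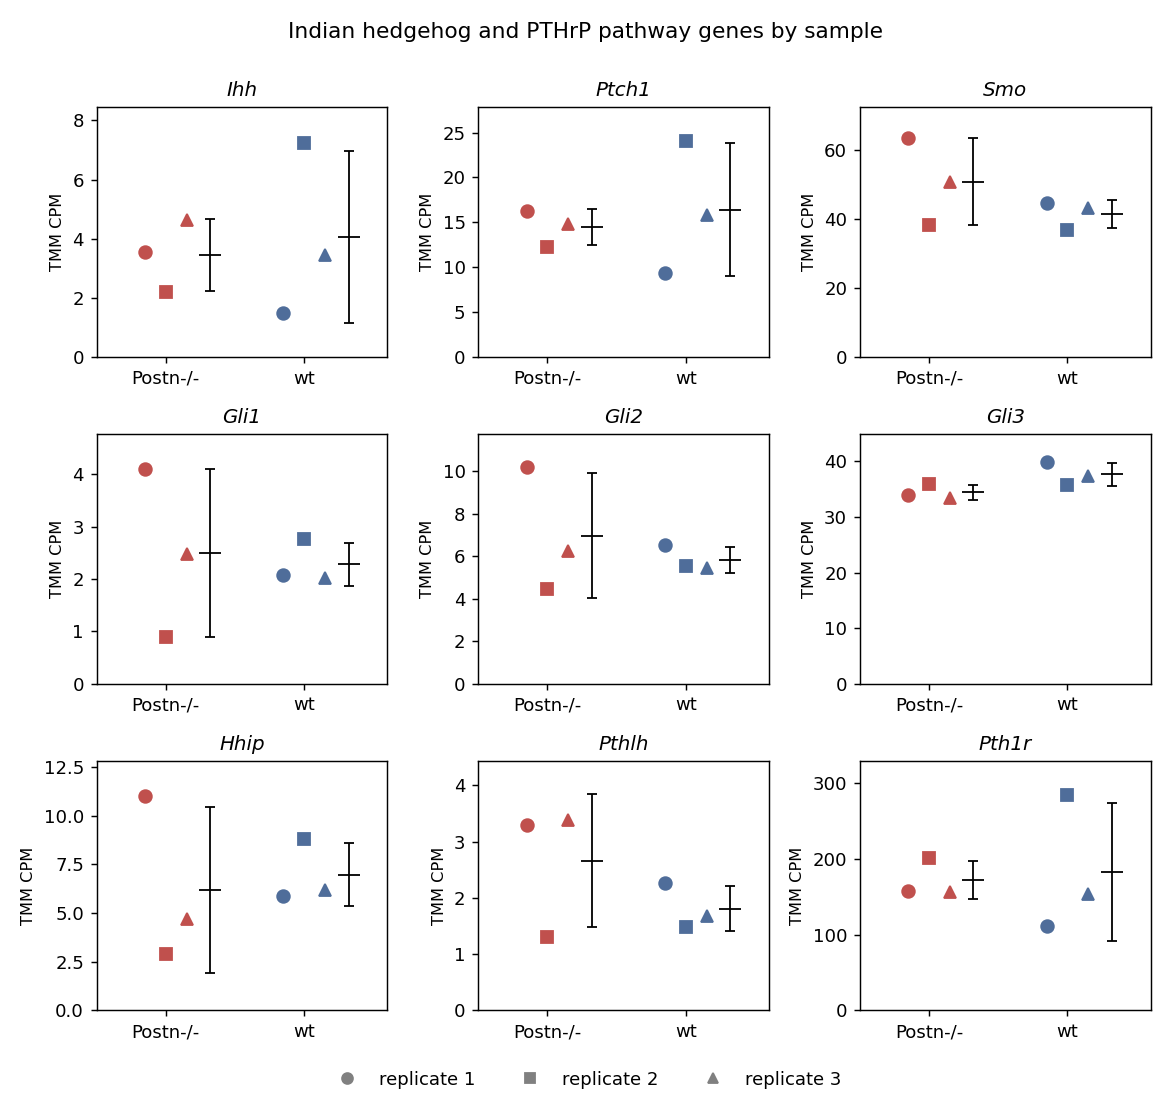
TMM CPM of each of the 9 genes in the 3 Postn-/- samples (red) and the 3 wt samples (blue), with one symbol per replicate number and the mean and SD (n = 3) as a black dash and bar beside each group. The groups overlap in every panel, and the highest Ihh, Ptch1 and Pth1r values are all in wt replicate 2.

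Ihh, the hedgehog ligand of the growth plate, lies on chromosome 1 from 74945315 to 74951672 of build GRCm38, on the minus strand. It was at 3.54, 2.20 and 4.62 CPM in Postn-/- replicates 1, 2 and 3 and at 1.5, 7.24 and 3.45 CPM in wt replicates 1, 2 and 3. Both the lowest and the highest sample were wt, 4.83-fold apart, and the 3 Postn-/- samples lay between them. The counts behind these 2 samples were 39 and 160 reads, with exact 95% Poisson intervals of 1.07 to 2.05 and 6.16 to 8.45 CPM, so wt replicates 1 and 2 differed by more than counting error, which is all these intervals cover. The log2 fold change of Ihh, Postn-/- over wt, was −0.23 with a 95% interval of −1.47 to 1.00 (SE 0.53, adjusted p = 0.921 by edgeR's test). Its sign depended on single samples: it was −0.64 without wt replicate 1 and 0.49 without wt replicate 2. The other hedgehog ligands were near the floor, with 2 Shh reads in all 6 samples together and 3 to 19 Dhh reads per sample.

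Pthlh, which encodes PTHrP, was at 3.30, 1.30 and 3.38 CPM in Postn-/- replicates 1, 2 and 3 and at 2.27, 1.49 and 1.68 CPM in wt replicates 1, 2 and 3. Postn-/- replicates 1 and 3 were above all wt samples, and Postn-/- replicate 2 was below all of them. The log2 fold change was 0.54, the largest in size among the 9, with a 95% interval of −0.36 to 1.44 (SE 0.39, adjusted p = 0.74 by edgeR's test). Leaving out Postn-/- replicate 2 raised it to 0.87 and leaving out Postn-/- replicate 3 lowered it to 0.33, still with no member past the adjusted threshold.

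Ptch1, the hedgehog receptor and a response gene of the pathway, was at 16.3, 12.3 and 14.8 CPM in Postn-/- replicates 1, 2 and 3 and at 9.30, 24.1 and 15.8 CPM in wt replicates 1, 2 and 3. As for Ihh, wt replicate 1 was the lowest of the 6 samples and wt replicate 2 the highest. Its log2 fold change was −0.18 with a 95% interval of −0.90 to 0.55 (adjusted p = 0.893 by edgeR's test), and 0.21 without wt replicate 2. The gene model in the tables starts at 63511533 on chromosome 13, inside the GENCODE M21 start of 63508328. Ptch1 is on the minus strand, so reads from this 3′ end of the transcript were not assigned to it. At the 5′ end the model stops at 63565520, inside the GENCODE M21 end of 63573598.

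Smo, the signal transducer that Ptch1 holds inactive, was at 63.3, 38.3 and 50.8 CPM in Postn-/- replicates 1, 2 and 3 and at 44.6, 36.9 and 43.0 CPM in wt replicates 1, 2 and 3. Postn-/- replicates 1 and 3 were above all wt samples while Postn-/- replicate 2 lay among them. The log2 fold change was 0.29 with a 95% interval of −0.13 to 0.72 (adjusted p = 0.73 by edgeR's test), and it was 0.10 without Postn-/- replicate 1.

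Pth1r, the PTHrP receptor, was at 158, 201 and 156 CPM in Postn-/- replicates 1, 2 and 3 and at 111, 285 and 154 CPM in wt replicates 1, 2 and 3. The extremes were again wt replicates 1 and 2. The log2 fold change was −0.09 with a 95% interval of −0.82 to 0.63 (adjusted p = 0.949 by edgeR's test), and it was 0.38 without wt replicate 2 and −0.35 without wt replicate 1.

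Among the transcription factors, Gli3, which is mostly processed to a repressor when hedgehog is absent, varied least. It ran from 33.4 to 39.8 CPM over the 6 samples, a 1.19-fold range, and its log2 fold change of −0.13 had the narrowest interval of the 9, −0.37 to 0.11 (adjusted p = 0.762 by edgeR's test). Gli1, an activator that the pathway itself induces, was at 4.10, 0.895 and 2.48 CPM in Postn-/- replicates 1, 2 and 3 and at 2.08, 2.76 and 2.01 CPM in wt replicates 1, 2 and 3. Here the highest and the lowest sample were both Postn-/-, 4.58-fold apart. These values rest on 22 to 102 reads, and 55 of the 3665 exon bases of Gli1 (1.5%) are shared with exons of Arhgap9 on the other strand. Gli2, the main activator upstream of Gli1, was also highest in Postn-/- replicate 1 (10.2 CPM) and lowest in Postn-/- replicate 2 (4.47 CPM). Without Postn-/- replicate 1 the log2 fold change of Gli1 went from 0.13 to −0.45 and that of Gli2 from 0.26 to −0.13.

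Hhip, a membrane protein that binds and sequesters hedgehog ligands, was at 11, 2.89 and 4.67 CPM in Postn-/- replicates 1, 2 and 3 and at 5.88, 8.82 and 6.18 CPM in wt replicates 1, 2 and 3. Of its 4896 exon bases, 175 (3.57%) are shared with Gm27820 on the other strand. Postn-/- replicate 1 was above all wt samples and the other Postn-/- samples were below all of them. The log2 fold change was −0.17 with a 95% interval of −1.21 to 0.88 (adjusted p = 0.935 by edgeR's test). It ranged from −0.88 to 0.18 when single samples were left out.

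**Figure D2:**
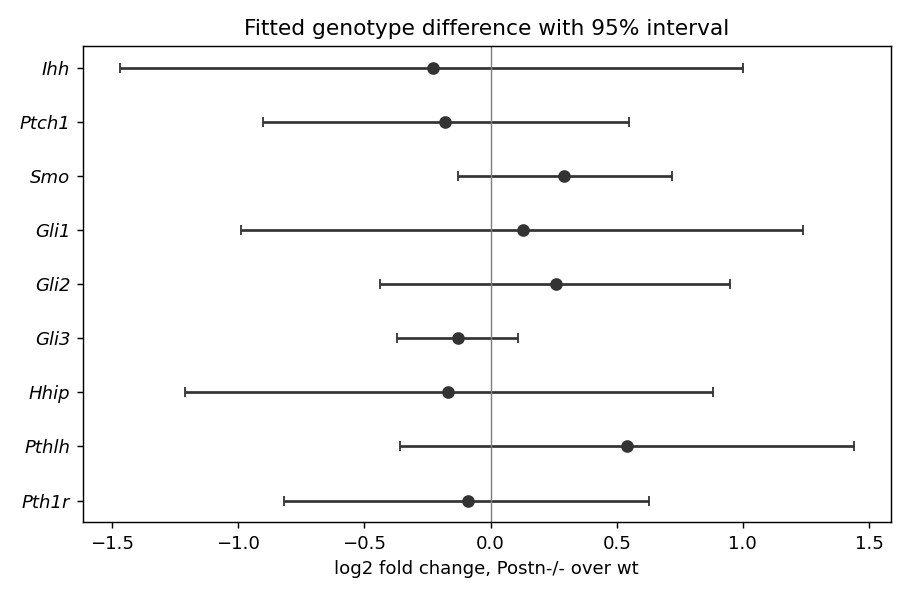
Fitted log2 fold change of each gene, Postn-/- over wt, with its 95% interval from edgeR's quasi-likelihood fit of 3 against 3 samples. Every interval includes 0, and the interval of Gli3 (−0.37 to 0.11) is the narrowest and that of Ihh (−1.47 to 1.00) the widest.

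The intervals state which differences these samples leave possible. For Ihh, ratios of Postn-/- to wt between 0.362 and 2.00 lie inside the interval, and for Gli3 between 0.776 and 1.08. A p above the threshold therefore does not show that the genotypes had equal levels, least of all for Ihh, Gli1 and Hhip.

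Levels can be compared between genes per kilobase of exon, on the RPKM scale after TMM scaling. Pth1r was the most abundant member at 71.4 ± 24.1 RPKM (mean ± SD, n = 6), and Smo followed at 12.2 ± 2.58 RPKM. These 2 were apart from each other and from the rest in all 6 samples. Gli3 (3.76 ± 0.247 RPKM) and Ptch1 (3.58 ± 1.15 RPKM) were not separated, with Gli3 the higher in 4 of 6 samples. Pthlh, Hhip and Ihh, at 1.4, 1.34 and 1.23 RPKM, could not be ordered, since each was above the next in 3 of 6 samples. Gli2 (0.933 RPKM) was above Gli1 (0.651 RPKM) in 6 of 6 samples, although their ranges overlapped. The receptor for PTHrP thus stood far above its ligand, with a mean of 71.4 against 1.4 RPKM.

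**Figure D3:**
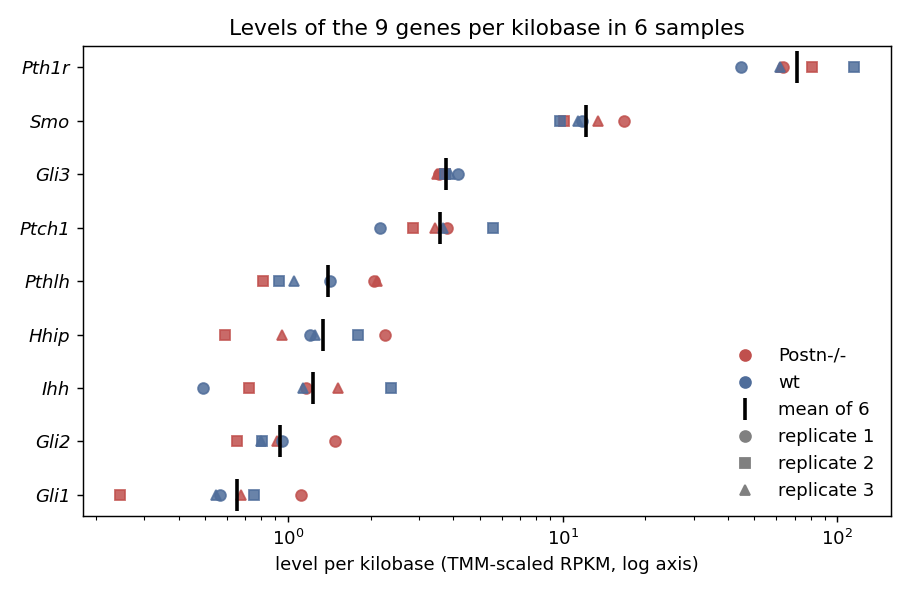
Level per kilobase of the 9 genes in 6 samples, as TMM-scaled RPKM on a log axis, with colors for genotype, symbols for replicate number and a black line at the mean of 6. Pth1r and Smo stand apart from the other members in every sample, while the points of Pthlh, Hhip and Ihh interleave.

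To compare the ligands with their response genes, receptors and Col10a1, 10 relations between genes were computed over the 6 samples on log2 TMM CPM with a prior count of 2. Ihh and Ptch1 had a Pearson r of 0.95 (exact permutation p = 0.0111, adjusted p = 0.0764 over the 10 relations) and a Spearman rho of 0.83 (exact permutation p = 0.0583, adjusted p = 0.343). Gli1 and Hhip had an r of 0.92 (exact permutation p = 0.0153, adjusted p = 0.0764) and a rho of 0.77 (exact permutation p = 0.103, adjusted p = 0.343). No relation passed an adjusted p of 0.05. The shared extremes of Ihh, Ptch1 and Pth1r described above come from the same values, so these p-values are no separate evidence of them. Without the 2 samples farthest from the median of the first gene, r was 0.72 for Ihh and Ptch1 (without wt replicates 1 and 2) and 0.42 for Gli1 and Hhip (without Postn-/- replicates 1 and 2). These values come from 4 samples over a narrower range, which can lower r, and do not show whether either relation holds without the extreme samples. Within genotypes, after centring each group, r was 0.96 for Ihh and Ptch1 and 0.94 for Gli1 and Hhip. The labels name no batch within which these relations could be recomputed.

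The remaining relations had a lower Pearson r. Ihh and Pth1r had an r of 0.73 (exact permutation p = 0.100, adjusted p = 0.333) and a rho of 0.60 (exact permutation p = 0.242, adjusted p = 0.403), and r was −0.90 in the 4 samples left without wt replicates 1 and 2. The ligands Ihh and Pthlh had an r of 0.04 (exact permutation p = 0.932, adjusted p = 0.932) and a rho of 0.20 (exact permutation p = 0.714, adjusted p = 0.793), with an r of 0.84 without wt replicates 1 and 2. For the other 6 relations r was between 0.44 and 0.61 (exact permutation, adjusted p = 0.424 for each) and rho between 0.03 and 0.77 (exact permutation, adjusted p = 0.343 to 1.0). Without the 2 farthest samples, r for these 6 ranged from −0.55 for Ihh and Col10a1 to 0.92 for Ptch1 and Hhip.

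**Figure D4:**
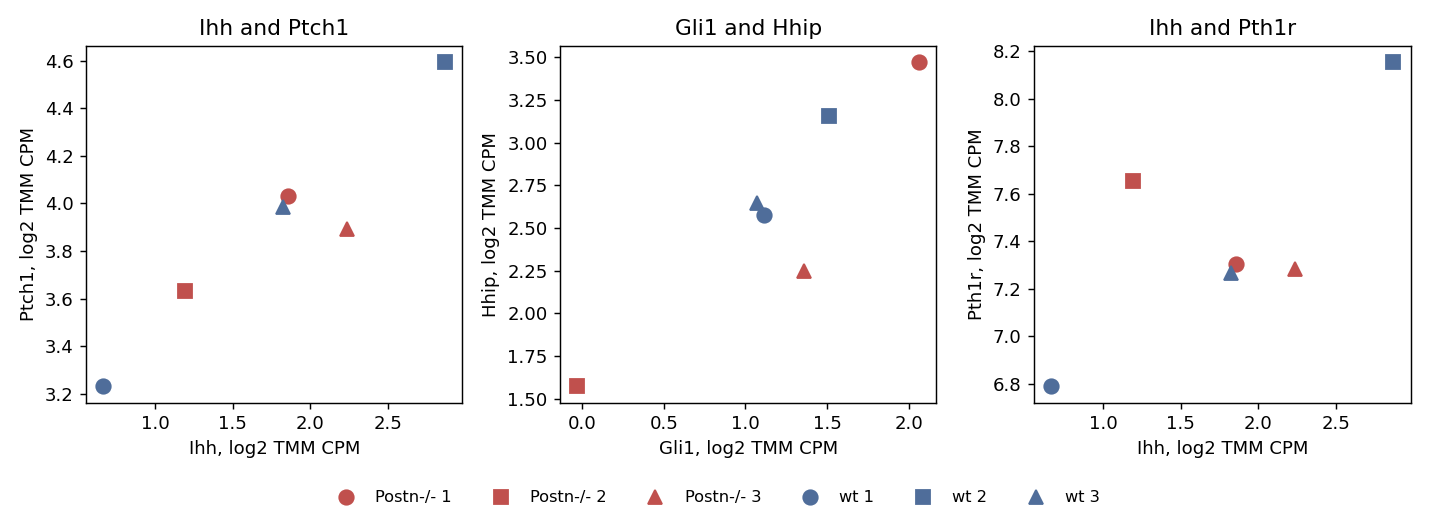
Log2 TMM CPM of 3 gene pairs in the 6 samples, with colors for genotype and symbols for replicate number. Ihh and Ptch1 span from wt replicate 1 to wt replicate 2 (r = 0.95), Gli1 and Hhip from Postn-/- replicate 2 to Postn-/- replicate 1 (r = 0.92), and for Ihh and Pth1r (r = 0.73) Postn-/- replicate 2 lies off the line of the others.

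Markers of chondrocyte stage varied across the same samples. Col10a1, the collagen of hypertrophic chondrocytes, was at 1177, 1609.6 and 1392 CPM in Postn-/- replicates 1, 2 and 3 and at 213, 1076 and 1185 CPM in wt replicates 1, 2 and 3. The low value was in wt replicate 1, where Ihh, Ptch1 and Pth1r were lowest too, but the highest was not in wt replicate 2. Of the 14 prehypertrophic and hypertrophic markers, 8 were lowest in wt replicate 1 and highest in wt replicate 2, as Ihh, Ptch1 and Pth1r were: Runx2, Runx3, Sp7, Alpl, Ibsp, Panx3, Vegfa and Bmp6. Ibsp, a bone matrix protein gene, ran from 127 to 925 CPM between these samples and Bmp6 from 1.58 to 8.14 CPM. This pattern was picked out after the values were seen. Across genes with counts, wt replicates 1 and 2 were the pair of samples that differed most (chi-square per degree of freedom 81.33). How many of all genes have these extremes was not counted, for this list or for those below. Spp1 and Mmp13, which make up much of the list's sum, did not share it and were highest in Postn-/- replicate 2. The 14 prehypertrophic and hypertrophic markers, all with counts and led per kilobase by Spp1, summed to 5380.3, 17241 and 5783 CPM in Postn-/- replicates 1, 2 and 3 and to 4396, 14855 and 6109.8 CPM in wt replicates 1, 2 and 3. The 10 resting and articular markers, all with counts, summed to 2163, 1005 and 1462 CPM in Postn-/- and to 1776, 717 and 1201 CPM in wt. Their sum was lowest in wt replicate 2, where Ihh, Ptch1 and Pth1r were highest, and so were 6 of the 10 genes (Prg4, Creb5, Erg, Clu, Wif1 and Barx1). Gdf5 of the same list went the other way. Like Ihh, it was lowest in wt replicate 1 (3.08 CPM) and highest in wt replicate 2 (9.14 CPM). Foxa3 was also lowest in wt replicate 1 (4.34 CPM), and was highest in Postn-/- replicate 3 (11.7 CPM). The 10 cell division markers, all with counts and led by Mcm5 (23.2 RPKM on average) and Mcm2 (22.9 RPKM), summed to 385, 604 and 289 CPM in Postn-/- and to 938, 503 and 529 CPM in wt. Their sum was highest in wt replicate 1, as were 9 of the 10 genes. Of the 10, 0 had a higher fitted level in Postn-/-, against 50.8% of all tested genes. The median log2 fold change was −0.66 beside 0.00415 over all genes, and 1 was lower at an unadjusted p of at most 0.05, as were 342 of the 14533 genes, with 0 past the adjusted threshold by edgeR's test. In fits with 1 sample left out, chosen for the marker lists after the values were seen, the median was −0.29 without wt replicate 1, with 1 gene higher (Mcm2), and −1.10 without Postn-/- replicate 2 to −0.40 without Postn-/- replicate 3. The count at an unadjusted p of at most 0.05 by edgeR's test also rested on single samples. Without Postn-/- replicate 2, all of the 10 but Pcna and Mcm2 were lower at this threshold, against 7.73% of all genes in either direction. Without wt replicate 2, Ccnb1, Aurkb, Pcna and Mcm5 were lower (8.71% of all genes). None of the 10 passed in the other fits with 1 sample left out. The part of these differences in marker levels in the members' values was not tested.

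Markers of bone and connective tissue also differed between samples. The 8 osteoblast and osteocyte markers, led by Bglap (187 RPKM on average) and Col1a1 (151 RPKM), summed to 990.5, 1563 and 697 CPM in Postn-/- replicates 1, 2 and 3 and to 771, 2201 and 678 CPM in wt replicates 1, 2 and 3. The peak in wt replicate 2 was mostly Col1a1, at 2059 CPM, which is also on the fibroblast list. Bglap, at 102 CPM in wt replicate 2, was highest in Postn-/- replicate 3 (151 CPM). The osteocyte gene Sost was at 0 in 4 of 6 samples. Fibroblast and perichondrium markers, led by Dcn (682 RPKM on average), summed to 1579 to 3289 CPM, and muscle and adipocyte markers, led by Fabp4 (139.8 RPKM on average) and Tnnt3 (8.14 RPKM), to 40.3 to 273 CPM. Among tested genes of the other marker lists, the fitted level was higher in Postn-/- for 7 of 10 resting and articular, 7 of 14 proliferating, 5 of 12 hypertrophic, 3 of 5 osteoblast, 1 of 2 osteoclast, 4 of 4 leukocyte, 4 of 4 endothelial, 7 of 8 fibroblast and 2 of 4 muscle and adipocyte markers, against 50.8% of all tested genes. The median log2 fold change was 0.47 for leukocyte (0.28 without wt replicate 2), 0.36 for endothelial (0.18 without wt replicate 1 and 0.64 without wt replicate 3) and 0.24 for fibroblast markers (−0.01 without Postn-/- replicate 1 and 0.48 without wt replicate 1). Several of these counts rest on 1 sample. With single samples left out, 6 to 8 resting and articular, 5 to 10 proliferating and 3 to 4 leukocyte markers were higher in Postn-/-. Hypertrophic markers higher in Postn-/- numbered 3 without wt replicate 1 or Postn-/- replicate 2 and 11 without wt replicate 2, fibroblast markers 4 without Postn-/- replicate 1, muscle and adipocyte markers 0 without wt replicate 1, and, without Postn-/- replicate 3, osteoblast markers 1, osteoclast markers 2 and endothelial markers 2. At an unadjusted p of at most 0.05, Col2a1 (0.68) and Col14a1 (1.02) were higher, as were 574 of the 14533 genes, and Acta1 was lower (−1.30, or −0.74 without wt replicate 2), with 0 past the adjusted threshold by edgeR's test. The part of these markers in the members' values was not tested.

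Of the 112 other pathway genes on 6 lists, 98 passed the filter and 0 had an adjusted p of at most 0.05 by edgeR's test. At an unadjusted p of at most 0.05 there were 6, all higher in Postn-/-, which is 6.12% of those tested and close to the 6.30% over all genes. Over all genes too, more were higher (574) than lower (342) in Postn-/- at this threshold. The groups did not overlap for 10 of the 98 pathway genes (10.2%, against 13.6% of all tested genes). Of these 10, Ift172, Gnaq and Sfrp1 were lower in Postn-/- and the others higher. The median log2 fold change of the tested pathway genes was 0.06, beside 0.00415 over all genes. A share near that of all genes is not a result about the pathway.

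Among genes for hedgehog ligands, their release and uptake, 14 of 16 were tested, 2 were higher and 0 lower at the unadjusted threshold, and the median log2 fold change was 0.23. The number past this threshold was 1 to 3 when single samples were left out. Sdc3 (56.8 RPKM on average) and the co-receptor Gas1 (21.1 RPKM) had the highest levels per kilobase. Ext2, a subunit of the heparan sulfate polymerase, was at 134, 134 and 122 CPM in Postn-/- replicates 1, 2 and 3 and at 82.9, 101 and 88.9 CPM in wt replicates 1, 2 and 3. All Postn-/- samples were above all wt samples, and the log2 fold change was 0.52 (SE 0.11, adjusted p = 0.717 by edgeR's test). Scube1, a secreted protein of the family that helps release hedgehog, had a log2 fold change of 0.51 (SE 0.18, adjusted p = 0.717), with overlapping groups.

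Cilium and Evc complex genes were all tested, 16 of 16, with 1 higher and 0 lower and a median log2 fold change of 0.02. The kinesin subunit Kif3a (13.0 RPKM on average) and Ift172 (9.08 RPKM) were the most abundant per kilobase. Evc2, which with Evc forms a complex at the ciliary base that passes on the Smo signal, was at 17.7, 16.9 and 16.4 CPM in Postn-/- replicates 1, 2 and 3 and at 10.8, 13.2 and 10.5 CPM in wt replicates 1, 2 and 3. The groups did not overlap, and the log2 fold change was 0.56 (SE 0.14, adjusted p = 0.717 by edgeR's test). For its partner Evc the log2 fold change was 0.39 (SE 0.19, adjusted p = 0.717) and the groups overlapped. Ift172 went the other way without overlap, at 50.1, 42.7 and 44.8 CPM in Postn-/- and 51.8, 53.7 and 51.3 CPM in wt. Its log2 fold change was −0.19 (SE 0.10, adjusted p = 0.717 by edgeR's test).

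Of 16 hedgehog signal inhibitors and kinases, 15 were tested and 0 passed the unadjusted threshold in either direction, with a median log2 fold change of 0.10. Prkar1a (106 RPKM on average) and Spop (69.0 RPKM) had the highest levels, and the lowest unadjusted p belonged to Adrbk1, now called Grk2, at a log2 fold change of 0.32 and to Sufu, the inhibitor that binds Gli proteins, at 0.27 (adjusted p = 0.717 for both by edgeR's test). Of 16 hedgehog response genes, 10 were tested and 0 passed, with a median of −0.08. Ccnd2 (265 RPKM on average) and Cdk6 (59.9 RPKM) were the most abundant, and the lowest unadjusted p belonged to Ccnd1 (log2 fold change −0.50) and Mycn (0.56), both with overlapping groups. Ccnd1 was at 100.4 CPM in wt replicate 1 and at 39.4 to 57.4 CPM in the other samples, and without wt replicate 1 its log2 fold change was −0.07.

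Downstream of the PTHrP receptor, 26 of 29 genes of receptor coupling and cAMP were tested, with 1 higher and 0 lower and a median log2 fold change of 0.04. Gnb1, a G protein beta subunit, had the highest level per kilobase (133 RPKM on average), followed by Gna11 (60.6 RPKM). Gnb1 was at 571, 549 and 891 CPM in Postn-/- replicates 1, 2 and 3 and at 429, 422 and 553 CPM in wt replicates 1, 2 and 3. Postn-/- replicate 3 stood out and the groups overlapped slightly, with a log2 fold change of 0.52 (SE 0.21, adjusted p = 0.717 by edgeR's test) that was 0.26 without Postn-/- replicate 3. The adenylyl cyclase Adcy3 had a log2 fold change of 0.34 (SE 0.17, adjusted p = 0.717). Gnas, which encodes the stimulatory G protein subunit that couples Pth1r to cAMP, was counted with only 60 to 131 reads per sample. In the tables' gene models 22.0% of its exon bases are shared with other genes, and reads that fall on 2 genes were left out of the counts. Use of strand in counting is not stated, and whether the sharing lowered the Gnas count was not tested. The level of Gnas is uncertain.

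Of 22 nuclear effectors below the receptor, 20 were tested, with 2 higher and 0 lower and a median log2 fold change of 0.07. The number past the unadjusted threshold was 1 to 3 when single samples were left out. Atf4 (356 RPKM on average) and Mef2c (21.0 RPKM), a transcription factor of chondrocyte hypertrophy, were the most abundant per kilobase. Nr4a1, an immediate early gene that cAMP induces, was at 5.75, 4.88 and 7.86 CPM in Postn-/- replicates 1, 2 and 3 and at 3.27, 2.94 and 4.03 CPM in wt replicates 1, 2 and 3. The groups did not overlap, and the log2 fold change was 0.85 (SE 0.25, adjusted p = 0.717 by edgeR's test). For the histone deacetylase Hdac5 it was 0.49 (SE 0.19, adjusted p = 0.717). Hdac4 of the same list went the other way, at −0.40 (SE 0.18, adjusted p = 0.717 by edgeR's test), with overlapping groups. Of the 20 tested genes, 11 had a higher fitted level in Postn-/-, against 50.8% of all tested genes.

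The genes whose pattern over the 6 samples was most like that of a member were found among up to 8409 tested genes with a mean of at least 10 CPM, by Pearson r on log2 TMM CPM. For Ihh they were Pfkl (r = 0.995), Ten1 (r = 0.992) and Gys1 (r = 0.991). Pfkl, a phosphofructokinase of glycolysis, ordered the samples exactly as Ihh did, from 453 CPM in wt replicate 1 to 790.5 CPM in wt replicate 2. For Pth1r they were Pdcd11 (0.994), 1110008P14Rik (0.993) and Rnf213 (0.992), for Gli1 Ddrgk1 (0.996), Angptl6 (0.994) and Hspa2 (0.989), and for Pthlh Qpct (0.983), Sec22c (0.982) and Tsc22d3 (0.981). These are the highest values among many genes in only 6 samples, and 17 to 53 genes reached an r of 0.95 for each of these members, so they describe the pattern only.

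Promoter windows from RefSeq (build GRCm38.p6, 250 bases before to 50 bases after a start site) were found for 8 of the 9 members, in 10 windows, 3 of them of Pth1r. They were searched on both strands for 4 letter strings, since several members had their extremes in the same samples. GACCACCCA, a core that Gli proteins bind, was in 0 of the 10 windows and in 0.253% of all 32851 windows. TGTGGTT, a core that Runx proteins bind, was in 0 of 10 and in 5.27% of all. The cAMP response element TGACGTCA was in 1 window, that of Hhip, and the MEF2 core TAAAAATA in 1 of the 3 Pth1r windows. These last 2 strings were added to the search because they had already been seen in those windows, so finding them there is no result, and the shares of all windows that hold them, 1.79% and 2.72%, cannot be read against it. No match says only that these letters are not in the window.

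The stretches are shown so that the letters can be seen in place, with the match in capitals. That of Hhip (chr8:80058052-80058107, minus strand) lies upstream of the gene, with 67 bases between the match and the start site. That of Pth1r (chr9:110742778-110742833, minus strand) lies in an intron of the longer transcripts, with 191 bases between the match and the nearest downstream start site.
Hhip: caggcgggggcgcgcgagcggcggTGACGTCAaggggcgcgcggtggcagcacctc
Pth1r: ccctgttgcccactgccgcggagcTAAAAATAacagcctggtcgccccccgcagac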

How the data were processed

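RNA was sequenced from cultured chondrocytes of 3 Postn-/- and 3 wt mice. The authors aligned single-end reads with STAR 2.0.4b and deposited counts of uniquely aligned, unambiguous reads per gene from featureCounts 1.4.5; use of strand is not stated. The labels name build mm9, but the coordinates in the tables match GRCm38. The authors also deposited CPM, which divides each count by its library's sum, and RPKM, which further divides by exon length in kilobases. Both were checked against the counts, and the deposited RPKM served as an alternative scale.

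Names came from GENCODE M21, which matched 97.26% of the 41388 identifiers. Genes had to exceed 1 CPM in 2 or more samples, and 355 rRNA genes were removed. Counts were fitted in R 4.3.3 with edgeR 4.0.16 (TMM, quasi-likelihood test, Benjamini-Hochberg adjustment over 14533 genes, no covariates), and SE was derived from the fold change and its F statistic. The procedure was tested on simulated data with 4-fold changes in 200 genes. All 200 were recovered among 213 calls, and 13 calls were of unchanged genes. The members' fitted changes were smaller than those simulated, so this does not show how well such changes are found. No 2 samples agreed within sampling noise (chi-square per degree of freedom 26.48 to 81.33). Poisson intervals and the floor of 3 counts cover counting error only. Correlations used exact permutation of all 720 pairings, two-sided.

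The genes named were the 9 members, Postn, the 2 most abundant genes per kilobase of each list, the 2 pathway genes of each list with the lowest unadjusted p, Col10a1, any list gene past the adjusted threshold, and the 3 genes most like Ihh, Gli1, Pthlh and Pth1r. Shh, Dhh, Gnas, Sost, Hba-a1, Arhgap9, Gm27820, Col2a1, Col14a1, Acta1, Ccnb1, Aurkb, Pcna, Gdf5, Foxa3, the 8 hypertrophic markers with the extremes of Ihh and the 6 resting and articular markers lowest in wt replicate 2 were picked for the text with their values in view. Gnaq, Sfrp1 and Hdac4 were also picked with their values in view. The members and lists were chosen with earlier results of these data known. The promoter search was added after the expression values had been seen, and 2 of its 4 letter strings were picked because they had been seen in the windows.

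Alternatives were DESeq2 1.42.0, its size factors, upper quartile normalization, 2 other filters, voomWithQualityWeights (limma 3.58.1) without and with 2 surrogate variables (sva 3.50.0), a replicate block, and leaving out each sample.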

Additional observations from a re-analysis of the deposited data

How the results depend on the processing

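In all 8 other fits and all 6 fits with 1 sample left out, 0 members had an adjusted p of at most 0.05, and 0 of the 10 relations passed under the 3 alternatives. At an unadjusted p of at most 0.05, 1 of 9 members passed with surrogate variables (Smo; 13.7% of all genes), 1 without Postn-/- replicate 1 (Hhip; 6.02%) and 2 without Postn-/- replicate 2 (Smo and Pthlh; 7.73%). Over all genes, 2 were called, against 11 with DESeq2, 9 with no filter, 4 with surrogate variables, 1 with upper quartile normalization, 1 with voomWithQualityWeights alone and 0 with genes above 1 CPM in all 6 samples, where Gli1 was not tested. Leaving out single samples gave 1 to 2. Pathway list genes at the unadjusted threshold numbered 6 of 98, against 10 of 111 with no filter (9.01%, beside 5.24% of all genes), 15 of 98 with surrogate variables (15.3%, beside 13.7%), and 4 to 10 with single samples left out, where all genes numbered 425 to 1257. By list, leaving out single samples gave 1 to 2 for cilium and Evc genes and for receptor coupling. It gave 0 to 1 for inhibitors and kinases and for response genes. Surrogate variables gave 5 for nuclear effectors, 3 for receptor coupling and 2 for response genes. Nuclear effectors also numbered 5 with no filter and 1 with the replicate block. The cause of these shifts was not tested.

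The sign of the log2 fold change was kept in 68 of 71 values of the members under the other fits. It turned for Gli1 with surrogate variables (−0.16). When single samples were left out, Ihh ran from −0.64 to 0.49, Ptch1 from −0.46 to 0.21, Gli1 from −0.45 to 0.53, Gli2 from −0.13 to 0.49, Hhip from −0.88 to 0.18 and Pth1r from −0.35 to 0.38, while Smo (0.10 to 0.46), Gli3 (−0.17 to −0.09) and Pthlh (0.33 to 0.87) kept their sign. Postn and the list genes named for a difference kept theirs in each fit that tested them; Mycn was not tested in 3. With single samples left out, Ccnd1 ran from −0.68 to −0.07, Mycn from 0.34 to 0.83, Gnb1 from 0.26 to 0.65 and Sufu from 0.16 to 0.37.

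With the replicate number as a block, 1 gene was called over all genes, Gli1 was at −0.03 and Pth1r at 0.01, and no call of a member changed. Same-numbered samples are different mice, and their deviations correlated at 0.082, 0.155 and 0.143, each sample best with its own number, a hint from the data and not from the design. Ihh, Gli1 and Pthlh rest on 22 to 160 reads per sample; how far depth limits their comparison was not tested.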
